A study of Homo sapiens with 4 samples.

Results

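The rituximab-resistant subline Jeko-1/R was set against the parental line Jeko-1 across all genes that could be read on this pair of arrays. Jeko-1 is a human mantle cell lymphoma line, a cancer of mature B cells that carries high cyclin D1. Rituximab is an antibody against CD20, the B-cell surface protein encoded by MS4A1. A probe set is a group of short oligonucleotides on the array that together read 1 transcript. A member was a probe set with exactly 1 gene symbol and a signal of at least 77.5 on at least 1 of the 2 arrays, where 77.5 was the median of all values on the 4 arrays of the study. This gave 22316 members of 41091 probe sets with 1 symbol, standing for 11701 of 19775 genes.

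The study measured gene expression on 4 arrays, from Jeko-1, Jeko-1/R and the Burkitt lymphoma pair Raji and Raji/R, to look for expression differences that accompany resistance. The parental cells are labelled as grown without rituximab and the Jeko-1/R cells as treated with it. The dose, the length of selection, whether Jeko-1/R is 1 clone and whether antibody was present at harvest are not given in the sources used here. Each line was measured once, so no p-value or standard error exists for any difference, and differences between the arrays cannot be told apart from differences between 2 cultures of any kind.

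CD20 is a membrane protein without a known natural ligand that associates with the B-cell receptor. Rituximab bound to it can kill cells through complement, through Fc receptors on immune cells and through direct signalling. Several inducible programmes run in any lymphoma culture: interferon signalling switches on antiviral genes, hypoxia-inducible factors switch on glycolytic and angiogenic genes, heat shock factor switches on chaperones, and metal-responsive factor switches on the metal-binding metallothioneins.

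The resistant and parental profiles were close. The log2 ratio of Jeko-1/R over Jeko-1 had a median of 0.00 and an SD of 0.30 over the 11701 genes, and 72.4% of the genes differed by less than 1.2-fold. Here a gene was represented by its brightest member probe set on the pair, and values below the floor of 77.5 were raised to it, so where 1 array lay below the floor the true ratio may be larger. Both arrays reached the floor for 20164 of the members, while 1083 lay below it only in Jeko-1 and 1069 only in Jeko-1/R. Among the probe sets, 97 were higher in Jeko-1/R by 2-fold or more (0.435%) and 123 were lower by as much (0.551%). Among the genes these counts were 46 higher (0.393%) and 66 lower (0.564%). At 1.5-fold, 325 genes were higher (2.78%) and 387 lower (3.31%). These shares are the ones to set beside the counts of list members below. Over all probe sets of the array, the median log2 signal was 6.11 for Jeko-1 and 6.12 for Jeko-1/R. Pearson's r between the 2 arrays, across probe sets that are not independent replicates, was 0.933 over all probe sets. It was 0.988 over the members that reached the floor on both arrays. In such bulk RNA, fewer cells with a transcript and less of it per cell cannot be told apart.

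Most 2-fold differences sat at low signal. Of the 220 probe sets past 2-fold, 174 had a mean signal under 400, and 57 had 1 array below the floor. Only 7 of the 5556 members with a mean signal of 1500 or more were past 2-fold. The SD of the log2 ratio was 0.40 for members with a mean signal under 150 and 0.18 for those at 1500 or more. A 2-fold ratio at low signal therefore lies within a wider spread than the same ratio at high signal.

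**Figure D1:**
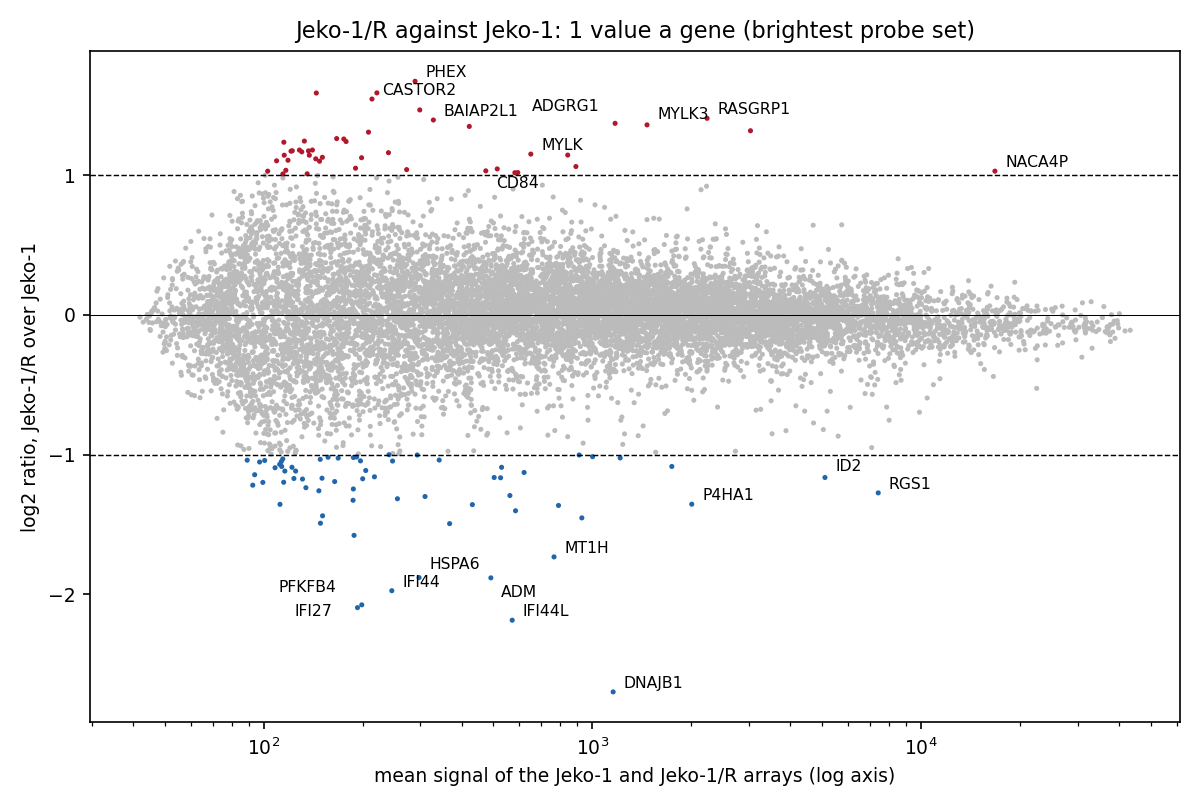
Log2 ratio of Jeko-1/R over Jeko-1 for 11701 genes (points, brightest probe set of each gene) against the mean signal of the 2 arrays on a log axis. Red and blue points are genes past 2-fold higher and lower in Jeko-1/R, dashed lines mark 2-fold, and the spread narrows toward high signal, where RGS1, ID2, P4HA1, RASGRP1 and NACA4P are among the few genes past 2-fold.

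Different probe sets of the same gene gave a second look at each difference within the same RNA. They stood in for measurement error, and they do not cover differences between cultures. For the 5849 genes with 2 or more member probe sets, the pooled SD between probe sets of a gene was 0.266 on the log2 scale. It was 0.347 where all probe sets compared had a mean signal under 400, and 0.119 where all had 1500 or more. The probe sets agreed better for lower genes than for higher ones. For the 21 genes with a brightest probe set at least 2-fold lower, 21 of the 25 other probe sets were also below 0 (84%), with a median of -0.56. For the 20 genes with a brightest probe set at least 2-fold higher, 18 of the 27 other probe sets were above 0 (66.7%), with a median of 0.12. Whether these shares differ beyond chance was not tested.

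Every member probe set was at least 1.5-fold lower in 25 genes (0.427% of 5849) and at least 1.5-fold higher in 14 genes (0.239%). The 25 lower genes were DNAJB1, HSPA6, IFI44, RGS1, ID2, PLSCR1, PEG10, MT1X, PRKAG2-AS1, MIR210HG, SEL1L3, ZNF292, SLC2A3, TENT5C, MACC1, MT1E, POFUT4, RASGEF1B, EPSTI1, MT1F, DNAJC12, ANTXR2, AK4, CALHM6 and TAGLN2. The 14 higher genes were MYLK3, MYLK, LOC100505498, ACAP1, EGR1, TRAF7, HBEGF, PYHIN1, HIVEP3, ARHGEF12, MYRF, WWC3, ERCC2 and FBXO10. Some of the highest single ratios did not hold across probe sets. PHEX, a membrane peptidase gene, read 1.67 with its brightest probe set and 0.12 with the other. ANKRD12 read 1.32 with its brightest probe set and between 0.04 and 0.29 with the other 3. LINC00537 read 1.59, but its other probe sets gave -0.03 and -0.07, and its sign turned when a gene was given the median of its probe sets.

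**Figure D2:**
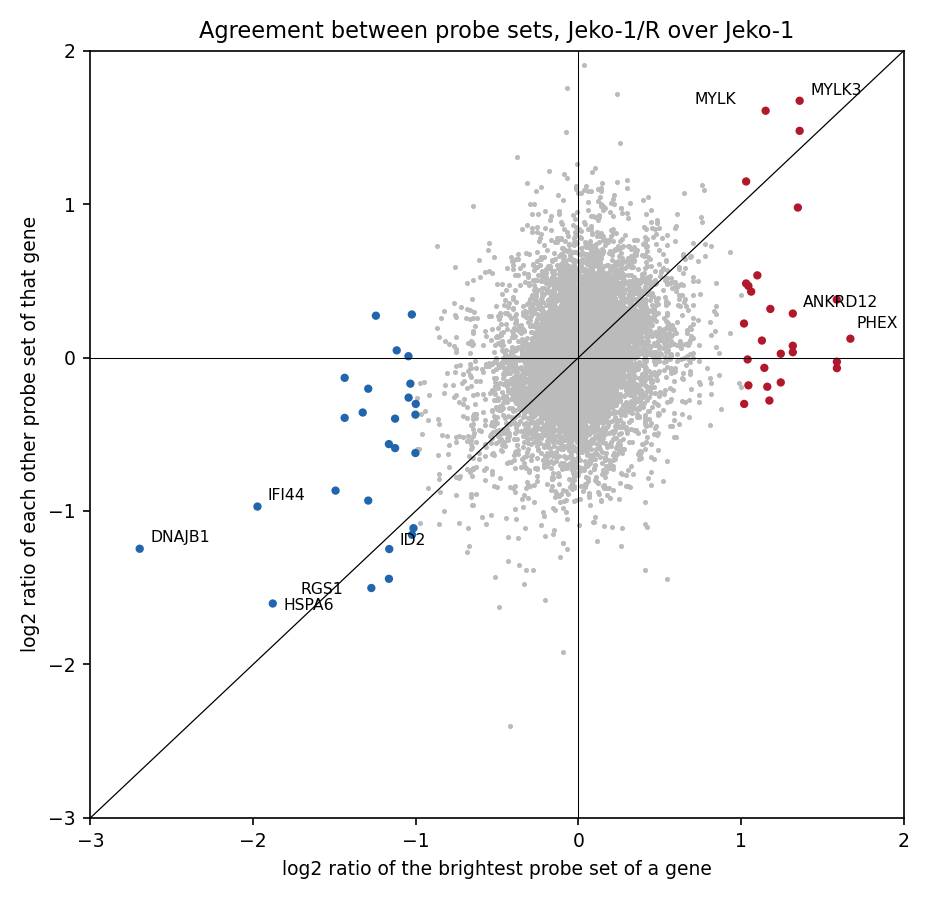
Log2 ratio of each other member probe set of a gene against that of its brightest probe set, Jeko-1/R over Jeko-1, with the line of equality. Blue and red points belong to genes at least 2-fold lower and higher by the brightest probe set. Most blue points lie below 0, while many red points, such as PHEX and ANKRD12, lie near 0.

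The transcript of the antibody's target was present in both lines. CD20 protein at the cell surface was not measured here. MS4A1 gave signals of 24891 in the parent and 23236 in the subline with its brightest probe set, 5751 and 4744 with the second, 5677 and 4713 with the third and 3509 and 3243 with the dimmest. All 4 probe sets were slightly lower in Jeko-1/R, with log2 ratios between -0.28 and -0.10, and none reached 1.5-fold. The mantle cell markers CCND1, encoding cyclin D1, and SOX11, a transcription factor, had log2 ratios of -0.08 and -0.17, and the B-lineage factor PAX5 had 0.01. CD79A and CD79B, the signalling chains of the B-cell receptor, stood at -0.16 and -0.15. CD5, another surface protein typical of mantle cell lymphoma, had no probe set at the floor. Over the 12 measured genes of mantle cell and B-lineage identity the median was -0.09, with 1 member past 1.5-fold, CD22.

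Interferon-stimulated genes held some of the largest decreases, but the list as a whole was mixed. Of 49 measured members, 15 were at least 1.5-fold lower, 5 of these at least 2-fold, and 0 were 1.5-fold higher, beside 3.31% of all genes lower and 2.78% higher at 1.5-fold. The median was -0.19 beside 0.00 over all genes, and 33 members lay below 0 and 16 above. IFI44L, a feedback regulator of antiviral responses, gave 935 in the parent and 206 in the subline, or -2.18 as a log2 ratio. Its neighbour on the chromosome IFI44 gave 391 and 99.6 (-1.97), and its other probe set gave -0.97. IFI27, a small mitochondrial protein gene strongly induced by interferon, gave 331 in the parent and 55.1 in the subline, below the floor, so it was at least 4.27-fold lower.

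Further members were lower by smaller amounts. PLSCR1, a phospholipid scramblase with antiviral activity, gave 543 and 193 (-1.49), with -0.87 from the other probe set. EPSTI1 gave 2070 and 1047 (-0.98), with -0.59 from the other. MX1, a GTPase that traps viral nucleocapsids, gave 1780 and 978 (-0.86). IFITM1, a membrane protein that blocks viral fusion, gave 12235 and 7555 (-0.70). These 4 genes were between 1.5-fold and 3-fold lower. Other members went the other way within 1.5-fold, with ISG20, an antiviral exonuclease, at 0.32 and MX2 at 0.23. PYHIN1, an interferon-inducible gene outside this list, was higher by both probe sets (0.93 and 0.69). Among 30 other probe sets of the list, 17 lay below 0 and 13 above, with a median of -0.05. With the floor at the 75th percentile of all values the list's median was -0.04. The signalling genes upstream of them had values nearer 0. The 23 measured genes of interferon signalling had a median of 0.01, with 1 at least 1.5-fold lower, IRF7 (953 and 631, log2 ratio -0.59), itself an interferon-induced transcription factor.

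The promoters of the lower interferon-stimulated genes are shown because most of them hold the core of the interferon-stimulated response element. Promoters are from RefSeq on GRCh38.p14 and were searched from 250 bases before to 50 bases after the annotated gene start, on both strands. The letters searched were GAAANNGAA. They occurred in 11 of the 12 promoters available for the 15 genes at least 1.5-fold lower, in 27 of the 40 available for all measured members, and in 8.29% of the 27305 promoters in the table. Since the list consists of interferon targets, the share says what kind of genes these are and bears on no difference between the arrays. The 120 bases before the start are printed, 5′ to 3′ on the gene's strand, with the core or its reverse complement in capitals: IFI44L (chr1:78620328-78620447, plus strand), IFI27 (chr14:94110616-94110735, plus strand), IFI44 (chr1:78649669-78649788, plus strand), IFI6 (chr1:27672193-27672312, minus strand) and RTP4 (chr3:187368265-187368384, plus strand). RTP4, at 286 and 187, carries overlapping cores, and in both RTP4 and IFI44 a core lies close to the start.
IFI44L: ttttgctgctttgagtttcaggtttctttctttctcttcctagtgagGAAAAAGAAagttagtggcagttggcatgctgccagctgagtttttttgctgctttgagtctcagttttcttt
IFI27: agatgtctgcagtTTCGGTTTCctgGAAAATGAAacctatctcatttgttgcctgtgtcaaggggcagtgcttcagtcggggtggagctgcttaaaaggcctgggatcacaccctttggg
IFI44: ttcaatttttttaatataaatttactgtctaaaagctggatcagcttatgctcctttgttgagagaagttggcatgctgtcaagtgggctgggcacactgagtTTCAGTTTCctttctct
IFI6: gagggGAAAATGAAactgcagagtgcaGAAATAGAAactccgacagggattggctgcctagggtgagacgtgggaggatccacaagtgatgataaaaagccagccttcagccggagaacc
RTP4: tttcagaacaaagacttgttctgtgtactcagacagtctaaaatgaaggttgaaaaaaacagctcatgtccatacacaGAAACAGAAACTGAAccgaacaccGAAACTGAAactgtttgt

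Genes of the hypoxia response and of glycolysis were lower as groups. The 30 measured hypoxia genes had a median of -0.45, with 27 below 0 and 3 above, 10 at least 1.5-fold lower and 1 at least 1.5-fold higher. The 28 measured glycolysis genes had a median of -0.38, with 24 below 0 and 4 above, and 9 at least 1.5-fold lower and 0 higher. Among all genes, 3.31% were lower and 2.78% higher by as much. Without x_at and s_at probe sets, which can bind several transcripts, the glycolysis median was -0.20. The lists share 0 genes, and their other probe sets followed: 31 of 33 in the hypoxia list and 22 of 29 in the glycolysis list lay below 0. In the hypoxia list, all probe sets were below 0 for 15 of 18 genes with 2 or more.

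In the hypoxia list the lowest was ADM, which encodes adrenomedullin, a peptide that widens blood vessels, at 773 in the parent and 210 in the subline (-1.88). P4HA1, a collagen prolyl hydroxylase subunit, gave 2885 and 1129 (-1.35), and ANKRD37 gave 2372 and 1119 (-1.08). KDM3A, a histone demethylase induced by hypoxia, gave 9331 and 4832 (-0.95), and MXI1, an antagonist of MYC, gave 6443 and 3650 (-0.82). These last 4 genes had signals well above the floor on both arrays. Several members had many probe sets in agreement. FAM162A, a mitochondrial protein gene, read between -0.73 and -0.51 with 4 probe sets, the brightest at 5086 and 3240. VEGFA, the angiogenic growth factor, read -0.34 with its brightest probe set (8001 and 6338), and the dimmer 3 gave -0.55, -0.89 and -1.47. BNIP3 and BNIP3L, mitophagy receptors, both stood at -0.50 with their brightest probe sets. MIR210HG, the host transcript of the hypoxia-induced miR-210, read -0.68 and -1.11. RORA, a nuclear receptor, was the 1 member at least 1.5-fold higher, at 74.4 and 117, from below the floor.

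In the glycolysis list the lower genes ran from the glucose transporters to lactate dehydrogenase, while the regulatory kinase PFKFB2 (0.42) and BPGM (0.19) lay above 0. SLC2A3, a glucose transporter, gave 390 and 215 (-0.86), and its other probe sets gave -1.08 and -0.76. PFKFB4, which makes the activator of phosphofructokinase, gave 326 in the parent and 71.4 in the subline, below the floor, so it was at least 4.21-fold lower. ALDOC, an aldolase, gave 460 and 224 (-1.04). The bright enzymes were lower by smaller amounts. TPI1 stood at -0.66, ALDOA at -0.66, PGAM1 at -0.59, LDHA at -0.53 (26543 and 18441), PGK1 at -0.39 and GAPDH at -0.32. ENO1, enolase, gave 10046 and 5959 (-0.75), with -0.90 and -0.06 from the others. PDK1, the kinase that turns off pyruvate dehydrogenase, gave 4969 and 2799 (-0.83), and its other probe sets gave 285 and 143, which is 2-fold lower, and a log2 ratio of -0.23. The hexokinase gene HK2 did not hold: its brightest probe set gave 7231 and 3965 (-0.87), the other 2 gave 0.73 and 0.19, and the median over its probe sets was 0.19. Oxidative phosphorylation genes, the mitochondrial counterpart, had a median of -0.08 over 47 genes with 0 past 1.5-fold.

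Promoters of the hypoxia and glycolysis genes were searched for the core of the hypoxia response element, ACGTG or GCGTG, on both strands. A core occurred in 12 of the 17 promoters available for the 19 genes at least 1.5-fold lower, in 40 of 51 for all measured members, and in 48.4% of the 27305 promoters in the table, so it is common. Shown as examples of how the core sits, picked after the values were seen, are ADM (chr11:10304953-10305072, plus strand), P4HA1 (chr10:73096867-73096986, minus strand), ALDOC (chr17:28576896-28577015, minus strand), FAM162A (chr3:122384062-122384181, plus strand) and AK4 (chr1:65147432-65147551, plus strand). FAM162A holds 4 cores in the bases shown and ALDOC holds 3. In AK4 the core lies in a palindrome and is matched on both strands.
ADM: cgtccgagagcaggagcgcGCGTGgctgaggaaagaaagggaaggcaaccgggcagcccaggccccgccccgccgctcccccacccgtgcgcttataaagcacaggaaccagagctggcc
P4HA1: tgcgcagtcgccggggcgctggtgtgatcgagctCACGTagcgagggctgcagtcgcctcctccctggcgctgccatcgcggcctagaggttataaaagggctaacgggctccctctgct
ALDOC: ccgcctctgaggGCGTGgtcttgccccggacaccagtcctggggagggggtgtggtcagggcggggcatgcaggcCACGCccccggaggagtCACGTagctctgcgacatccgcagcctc
FAM162A: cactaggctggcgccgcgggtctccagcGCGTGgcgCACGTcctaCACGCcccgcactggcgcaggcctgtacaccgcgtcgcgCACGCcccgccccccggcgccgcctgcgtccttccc
AK4: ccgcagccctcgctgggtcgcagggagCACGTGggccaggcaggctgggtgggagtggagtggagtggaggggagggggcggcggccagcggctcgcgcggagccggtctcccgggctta

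Heat shock genes contained the largest decrease by brightest probe set, although its size depends on the probe set. DNAJB1, the inducible co-chaperone of HSP70, gave 2005 in the parent and 309 in the subline with its brightest probe set (-2.70) and 1198 and 505 with the other (-1.25), which would stand for the gene if the brightest were chosen over 4 arrays. HSPA6, an HSP70 gene that is nearly silent without stress, gave 467 and 127 (-1.88), and 235 and 41.8 with the other probe set, where the second value is below the floor. HSPB1, the small heat shock protein HSP27, gave 721 and 339 (-1.09). The abundant constitutive chaperones differed little, with HSPD1 at -0.10, HSPA4 at -0.10 and DNAJA1 at 0.03. Of 23 measured members, 5 were at least 1.5-fold lower and 0 higher, beside 3.31% and 2.78% of all genes. Of these 5 members, 3 were at least 2-fold lower. The median was -0.17, with 20 below 0 and 3 above, and it was -0.08 without x_at and s_at probe sets, whose oligonucleotides can bind more than 1 transcript. HSPH1 was among the 5 (6395 and 3969, log2 ratio -0.69), but its dimmest probe set gave 0.32, which became its value without x_at and s_at probe sets. HSF1, which encodes a heat shock factor, was also among them (164 and 101, log2 ratio -0.69), but its other probe set gave 0.26. The unfolded protein response of the endoplasmic reticulum, a separate chaperone programme, had a median of 0.06 over 25 genes, with 19 above 0 and 0 past 1.5-fold. The integrated stress response had a median of 0.07 over 24 genes and antioxidant genes had -0.04 over 25, both with 0 past 1.5-fold.

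The metallothionein list, which holds these small zinc- and copper-binding proteins and also the zinc exporter SLC30A1 and the metal-responsive factor MTF1, had the lowest median of the 49 lists, -0.87 over 10 genes. MT1H gave 1175 and 354 (-1.73), MT1HL1 gave 1137 and 442 (-1.36), MT1G gave 695 and 310 (-1.16), MT1X gave 1340 and 664 (-1.01), MT1E gave 1217 and 607 (2-fold lower), MT1F gave 1013 and 610 (-0.73) and MT2A gave 1535 and 926 (-0.73). All 7 were lower by at least 1.5-fold, and 5 by at least 2-fold. They were read by x_at probe sets, whose oligonucleotides can bind the near-identical family members, so the 7 values are not separate measurements and the family members cannot be told apart. The other 3 members were not uniformly lower. SLC30A1 gave 1686 and 1324 (-0.35), MTF1 gave 472 and 597 (0.34), and the metallothionein MT3 gave 57.2 and 89.8 (0.21 after the first value was raised to the floor). Without x_at and s_at probe sets these 3 genes were left, and the list's median was 0.21.

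The heat shock element core, GAANNTTC or TTCNNGAA, occurred in 2 of the 4 promoters available for the lower heat shock genes, in 6 of 20 for all measured members and in 13.7% of the 27305 promoters. The promoters of DNAJB1 and HSPH1 held none. The metal response element, searched as TGCACNC or TGCGCNC, occurred in all 3 promoters available for the lower metallothioneins. It occurred in 4 of 5 for all measured members of that list and in 29.3% of the promoters in the table. These shares bear on no difference between the arrays. These promoters show the repeated elements, in capitals: HSPA6 (chr1:161524420-161524539, plus strand), with overlapping heat shock cores, and the neighbours MT1H (chr16:56669694-56669813, plus strand), MT1X (chr16:56682350-56682469, plus strand) and MT2A (chr16:56608464-56608583, plus strand), with metal elements.
HSPA6: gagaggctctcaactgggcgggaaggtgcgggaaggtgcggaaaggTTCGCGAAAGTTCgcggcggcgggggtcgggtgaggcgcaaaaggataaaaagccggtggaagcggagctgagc
MT1H: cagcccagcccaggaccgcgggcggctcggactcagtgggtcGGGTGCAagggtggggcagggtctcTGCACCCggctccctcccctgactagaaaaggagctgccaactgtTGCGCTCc
MT1X: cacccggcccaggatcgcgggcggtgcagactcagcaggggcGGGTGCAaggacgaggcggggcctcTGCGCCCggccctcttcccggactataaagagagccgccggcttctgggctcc
MT2A: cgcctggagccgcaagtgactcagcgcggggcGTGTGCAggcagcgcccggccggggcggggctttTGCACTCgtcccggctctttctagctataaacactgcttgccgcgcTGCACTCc

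**Figure D3:**
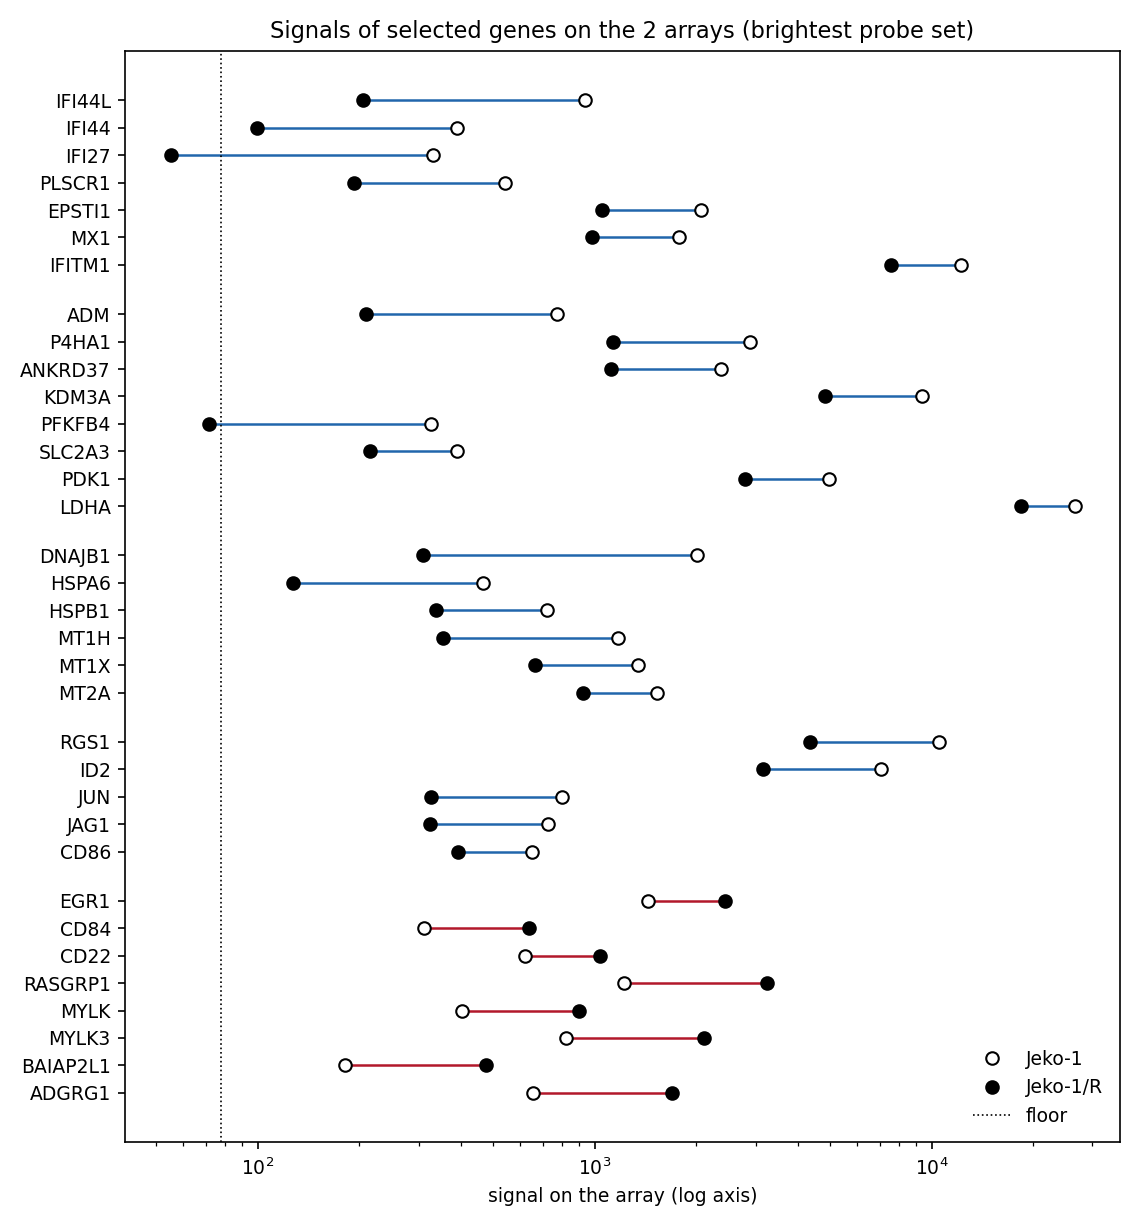
Signals on the Jeko-1 array (open circles) and the Jeko-1/R array (filled circles), on a log axis, for selected genes by their brightest probe set, in 5 blocks: interferon-stimulated genes, hypoxia and glycolysis genes, heat shock genes and metallothioneins, other lower genes, and higher genes. The dotted line is the floor of 77.5, and IFI27 and PFKFB4 in Jeko-1/R lie below it.

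Histone genes and the DNA replication machinery were slightly lower. The 33 measured replication-dependent histones are made in S phase, and their transcripts mostly end without a poly(A) tail. They had a median of -0.30, with 28 below 0. At 1.5-fold, 9 of these histones were lower and 0 higher, beside 3.31% and 2.78% of all genes. The lowest was H2BC3, at 219 and 78.2 (-1.49), followed by H2BC11 (336 and 183, ratio -0.87), H3C7 (-0.84) and the linker histone H1-3 (707 and 394, ratio -0.84). Brighter histones differed less, with H2BC6 at -0.47 and H1-2 at -0.36. DNA replication genes had a median of -0.15 over 53 genes, with 41 below 0 and 0 past 1.5-fold. Their lowest member was TK1, thymidine kinase (938 and 648, ratio -0.53). Mitosis genes had -0.05 over 53 with 0 past 1.5-fold, and cyclins and cell cycle brakes had -0.08 over 24. In that last list E2F2 gave 1218 and 723 (-0.75), but its other probe sets lay above 0 and the median over them was 0.03, and E2F1 gave 0.62 and -0.43 with its 2 probe sets. The p53 targets had a median of 0.03 over 20 genes.

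Among signalling genes, RGS1 and ID2 were lower at high signal. RGS1, which switches off G proteins behind chemokine receptors, gave 10487 in the parent and 4339 in the subline (-1.27), and its other probe set gave -1.50. ID2, an inhibitor of the E-proteins that drive B-cell genes, gave 7056 and 3152 (-1.16), with -1.25 from the other. These were among the few 2-fold differences at signals above 1500, and both probe sets of each gene passed 2-fold. GNA15, a G alpha subunit, gave 257 and 127 (-1.02). The 25 G protein regulators had a median of -0.13, with 3 at least 1.5-fold lower and 0 higher, beside 3.31% and 2.78% of all genes. JAG1, a NOTCH ligand, gave 728 and 324 (-1.17), with -1.44 and -0.56 from the others, in a NOTCH list with a median of -0.09 over 20 genes.

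Immediate-early genes, which respond within minutes to receptor signals, split by member. JUN gave 797 and 326 (-1.29), with -0.93 and -0.20 from probe sets that lay below the floor in Jeko-1/R. DUSP1, a phosphatase of MAP kinases, gave 1226 and 649 (-0.92). EGR1, a zinc finger factor of the same response, was higher with all 3 probe sets: 1443 and 2442 (0.76), 282 and 614 (1.12), and 258 and 475 (0.88). EGR3 gave 139 and 228 (0.71). Over the 27 measured members the median was -0.08. At least 1.5-fold lower were 3 of them and higher were 2, beside 3.31% and 2.78% of all genes. GADD45B, a stress-response gene, gave 1622 and 854 (-0.93), with -0.85 and -0.41 from the others. HBEGF, a ligand of the EGF receptor, was higher by both probe sets (0.76 and 0.92).

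Among B-cell surface molecules, a few receptors were higher. CD84, a SLAM family adhesion receptor, gave 312 and 637 (1.03), 102 and 227 (1.15), and 175 and 244 (0.48). CD22, an inhibitory co-receptor of the B-cell receptor, gave 621 and 1033 (0.73), and its other probe sets gave 0.24, 0.63 and 0.50. CD72, another inhibitory co-receptor, gave 2488 and 3874 (0.64). All probe sets of these 3 genes were above 0. CD86, a costimulatory ligand for T cells, was lower at 653 and 392 (-0.73), with -0.51 and -0.78 from the others, and CD27, a memory B-cell marker, gave 376 and 227 (-0.73). The 40 measured surface molecules had a median of 0.10, with 26 above 0. At 1.5-fold, 4 of them were higher and 2 lower, beside 2.78% and 3.31% of all genes.

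Below the receptor, RASGRP1 stood apart. This diacylglycerol-dependent activator of Ras gave 1224 in the parent and 3246 in the subline (1.41), from 1 probe set, so no second probe set checks it. VAV2, an exchange factor, gave 759 and 1152 (0.60), but its other probe set gave -0.52. The 43 genes of B-cell receptor signalling had a median of 0.05, which lay between -0.01 and 0.08 over the alternative settings. Of them, 2 were at least 1.5-fold higher and 0 lower, beside 2.78% and 3.31% of all genes. RAS activators and brakes had 0.01 over 20 genes, and SPRED2, an inhibitor of the pathway, gave 210 and 316 (0.59). B-cell transcription factors had a median of 0.05 over 38 genes, with ID2 and ZNF521 at least 1.5-fold lower and 0 higher. ZNF521 gave 171 and 78.9 (-1.12), and its other probe set gave 0.05.

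The most repeated increases were in myosin light chain kinases. MYLK3, known as a cardiac kinase, gave 823 and 2112 (1.36), 594 and 1895 (1.67), and 154 and 430 (1.48) with its 3 probe sets. MYLK, the smooth muscle and non-muscle kinase, gave 404 and 896 (1.15) and 112 and 342 (1.61). All 5 probe sets were more than 2-fold higher in Jeko-1/R. BAIAP2L1, which bends membranes and bundles actin, gave 181 and 476 (1.40) from 1 probe set. Outside these 3 the actin cytoskeleton list held no other gene 1.5-fold higher. Of 40 measured genes, 3 were at least 1.5-fold higher and 1 lower, BAIAP2, beside 2.78% and 3.31% of all genes. The list's median was -0.05. ADGRG1, an adhesion G protein-coupled receptor, gave 654 and 1692 (1.37) from 1 probe set. CASTOR2, a gene of the arginine sensor family that restrains mTORC1, gave 109 and 318 (1.54), in an mTOR and nutrient sensing list with a median of 0.08 over 31 genes.

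Further genes with several probe sets lay the same way in each. PEG10, an imprinted retrotransposon-derived gene, gave 1629 and 802 (-1.02), with -1.16 from the other probe set. SEL1L3 gave 2945 and 1865 (-0.66), with -0.91 and -0.89. BACE2, a membrane protease, gave 482 and 245 (-0.97), with -1.08 and -0.17. On the higher side, MIAT, a long non-coding RNA, gave 4478 and 7001 (0.65), and its other 3 probe sets gave 0.68, 0.55 and 0.47. HIVEP3, a zinc finger factor, gave 336 and 576 (0.78), with 0.66 and 0.74, and WWC3 gave 3671 and 5729 (0.64), with 0.66. PYHIN1, an interferon-inducible nuclear protein of the HIN-200 family, was higher by both probe sets (0.93 and 0.69).

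The remaining lists had few members past 1.5-fold. Over all genes, 2.78% were higher and 3.31% lower by as much. NF-kB pathway and targets had a median of 0.03 over 25 genes, with TRAF1, an adaptor of TNF receptors, at 178 in the parent and 21.1 in the subline, below the floor. Chemokine and homing receptors had 0.00 over 16 genes, with ADGRG1, CCL4 and CCL5 at least 1.5-fold higher and ACKR3 lower. The other probe set of CCL5 gave -0.37, and all 5 other probe sets of this list lay below 0, with a median of -0.41. Adhesion genes and integrins had 0.00 over 23, with CD151 and ITGAV lower. The WNT list had -0.03 over 23 and the TGF-beta and BMP list 0.03 over 21, each with 1 member at least 2-fold lower, WNT10A and SMAD6. Circadian clock genes had 0.13 over 15, with CRY2 and RORA higher. Of the 8 other probe sets of the clock list, 6 lay below 0 and 2 above, with a median of -0.32. With each clock gene given the median of its probe sets, the list's median was 0.01. Cholesterol synthesis had 0.00 over 19, fatty acid and lipid metabolism -0.02 over 26, autophagy and lysosome -0.02 over 31, histone and DNA modifiers 0.03 over 43, and RNA hosts 0.01 over 13. Each of these last 5 held 1 member past 1.5-fold: TM7SF2 and KDM3A lower, LPL, WIPI1 and MIAT higher.

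Lists that bear on how antibody-coated cells die had no member past 1.5-fold. The BCL2 family had a median of -0.10 over 19 genes, and death receptors, caspases and IAPs had 0.01 over 27. Of the complement regulators, 3 were measured: CD59 gave 444 and 323 (-0.46), CD46 gave -0.13 and CD55 gave 0.10, a list median of -0.13. Their 7 other probe sets split, with 4 below 0 and 3 above. With each of these genes given the median of its probe sets, the list's median was 0.03. MHC class I stood at 0.07 over 16 genes and MHC class II at 0.04 over 14. The proteasome stood at -0.07 over 27 and drug and lipid ABC transporters at 0.05 over 14. The 51 cytosolic ribosomal protein genes, the brightest list, had a median of -0.09 with 48 below 0, and that median was 0.00 after quantile normalization or a lowess adjustment on signal. In all, 106 of the 712 genes past 1.5-fold belonged to any of the 49 lists, which hold 1165 of the 11701 genes.

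**Figure D4:**
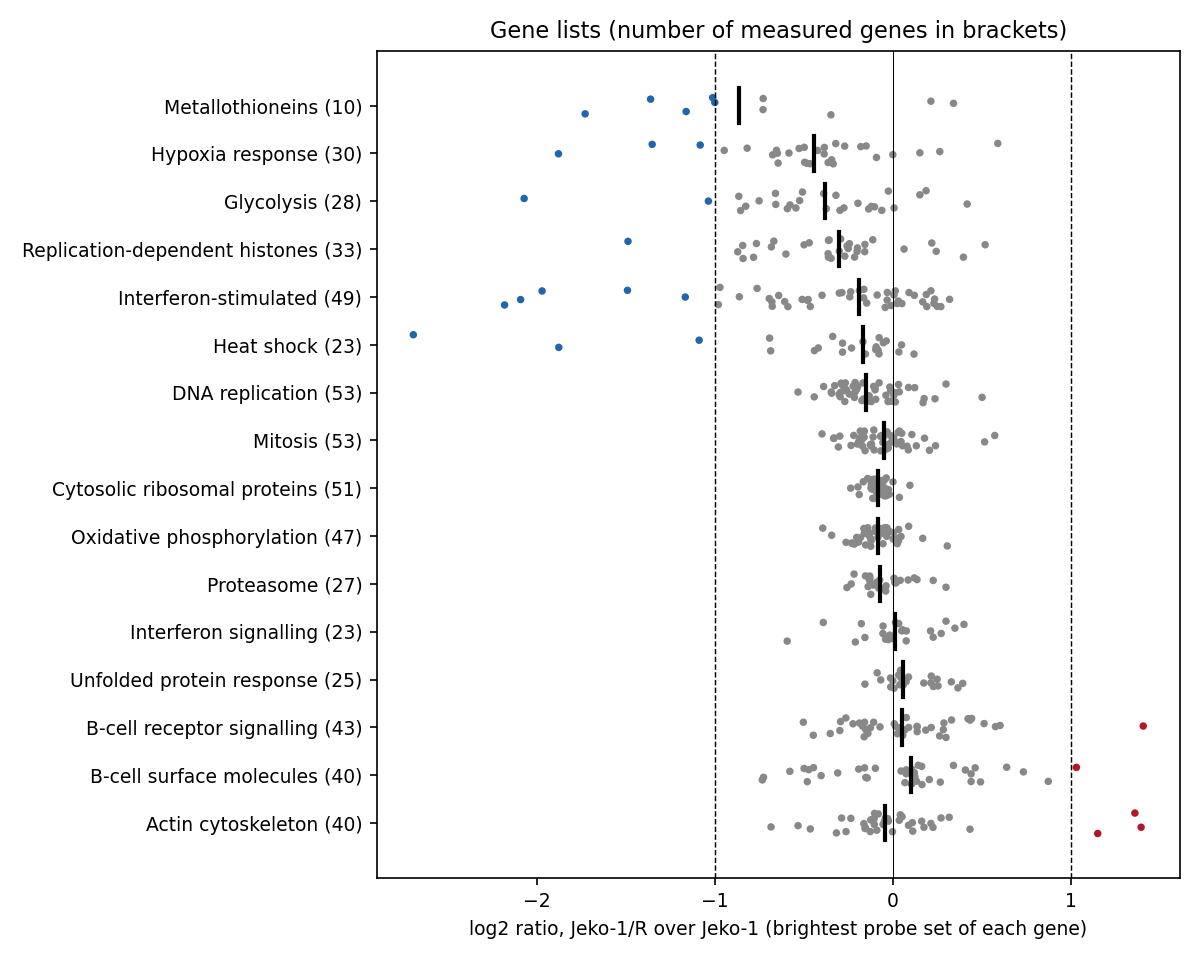
Log2 ratio of Jeko-1/R over Jeko-1 for the measured genes of 16 of the 49 lists (points, brightest probe set), with the list's median as a vertical bar and dashed lines at 2-fold. Genes of the metallothionein, hypoxia, glycolysis and histone lists lie mostly below 0, interferon-stimulated and heat shock genes hold a few very low members, and the ribosomal genes are tightly grouped just below 0.

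Markers of other cell types were mostly below the floor. T-cell markers reached it in 6 of the 15 genes on the array, with summed signals of 3585 in the parent and 3651 in the subline and a median ratio of -0.03, and CD3E, CD3G, CD2 and CD8A were not among them. For NK cells 1 of 14 reached it, PRF1, at 138 and 220 (0.67). Myeloid markers reached it in 5 of 21, with sums of 1112 and 1069 and a median of 0.27, without CD14 and LYZ. Erythroid and platelet markers reached it in 5 of 11 (678 and 708, median 0.10) and epithelial and stromal markers in 7 of 20 (1504 and 1228, median -0.14), where EPCAM gave 324 and 184. The part of these signals in the differences above was not tested.

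The ratios also varied by chromosome. Genes on chromosome 15 had a median log2 ratio of 0.121 over 388 genes, with 69.3% above 0, and the share was 76.9% among the 260 with a mean signal of at least 400. Chromosome 22 had 0.080 over 302 genes and chromosome 9 had 0.079 over 469, while the other chromosomes lay between -0.039 and 0.028. In running windows of 25 neighbouring genes, 361 of the 364 windows on chromosome 15 had a median above 0 (99.2%), against 394 of 445 on chromosome 9 and 232 of 278 on chromosome 22. Adjacent windows share most of their genes, so these windows are not separate observations. A median of 0.121 is a small shift next to the SD of 0.30 between genes, and it is spread along the chromosome. Of the 46 genes at least 2-fold higher, 6 lay on chromosome 15: RASGRP1, LYSMD4, ARID3B, CEMIP, ACTG1P17 and GOLGA2P10. Chromosome 15 holds 388 of the 11675 genes placed. On chromosome 9, with 469 genes, lay LINC00537, PTGDS, SEMA4D, SH3GLB2 and SLC25A51, and the rest were spread over other chromosomes. In the Raji pair the same chromosomes had medians of 0.045 (15), 0.156 (22) and 0.132 (9) beside 0.092 over all genes. DNA copy number was not measured here.

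Local shifts were few. Of 11123 windows, 20 had a median beyond 0.25 in size, in 2 places. On chromosome 6 the window from TDP2 to H2BC9 had a median of -0.258, with 21 of 25 genes below 0, and it spans part of the histone gene cluster, whose members were described above. On chromosome 9 the window from SLC25A51 to RFK had a median of 0.278, with 19 of 25 genes above 0, and SLC25A51, a mitochondrial NAD carrier, was itself at 178 and 366 (1.04).

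**Figure D5:**
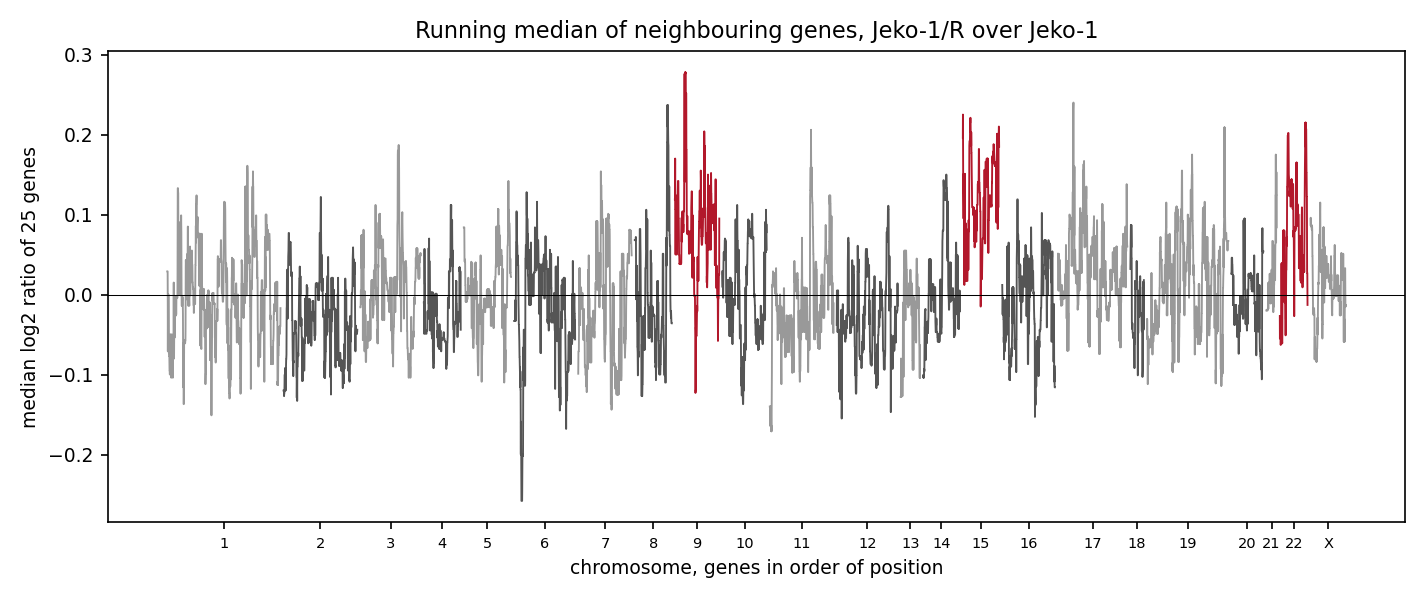
Median log2 ratio of Jeko-1/R over Jeko-1 in running windows of 25 neighbouring genes, ordered by position within each chromosome (horizontal axis, counted in genes). Chromosomes 9, 15 and 22 are in red: nearly all of chromosome 15 lies above 0, and the deepest dip is the histone region of chromosome 6.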

How the data were processed

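Affymetrix Human Genome U133 Plus 2.0 arrays measured RNA of the parental and resistant Jeko-1 and Raji cells, 1 array each. The submitters' processing notes name MAS5 as the tool and give no version. The table that the authors deposited holds log2 signals of 54613 probe sets on each array. MAS5 uses a single scaling factor per array, which leaves intensity-dependent differences in place.

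Symbols came from the platform annotation and were checked by gene ID against RefSeq (GRCh38.p14, 41037 of 41091 matched, 0 changed). Probe sets with several symbols (1801) or none (11721) were left out. The floor was the pooled median, a log2 of 6.28. Chromosomes and neighbours were taken from the RefSeq table for 11675 genes. There were no replicates, and no test or p-value was computed. The labels name no separate cultures.

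The members and the 49 gene lists (1491 genes, 1165 measured) were chosen with earlier results of these data known. Named genes followed a rule (104 genes): MS4A1, genes with 2 or more probe sets past 2-fold the same way, the highest and lowest 12 by median over 3 or more probe sets of one sign, the highest and lowest 10 by brightest probe set, and up to 5 of each list past 1.5-fold. The text names a part of them. Other genes named were chosen after their values were seen. Alternatives were quantile and lowess scaling (fraction 0.3), other floors, a pseudocount of 32, probe sets without x_at and s_at, and other choices of probe set. The chromosome medians were added after seeing the data. The steps that give ratios and gene values were tested on simulated data, with genes far above the floor changed by known folds. The other steps were not tested in this way. Calculations used pandas 2.3.3, numpy 2.4.6 and statsmodels 0.14.6 under Python 3.11.15, and figures used matplotlib 3.10.9.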

Additional observations from a re-analysis of the deposited data

Results flagged for a closer look

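A total of 9 genes were past 2-fold in opposite directions in the Jeko-1 and Raji pairs, which share no array. With 1 array per line the difference between the pairs was not tested. In 8 of them the Jeko-1 ratio was negative and the Raji ratio positive. These, with both log2 ratios in that order, were the chaperone genes DNAJB1 (-2.70 and 2.83) and HSPA6 (-1.88 and 3.47), the G protein genes RGS1 (-1.27 and 1.79) and GNA15 (-1.02 and 1.05), the hypoxia and glycolysis genes ANKRD37 (-1.08 and 1.61) and ALDOC (-1.04 and 1.19), the collagen-processing gene PCOLCE (-1.58 and 1.26), and DOCK1 (-1.02 and 1.08), whose other probe set gave 0.28 in Jeko-1/R. The receptor gene ADGRG1 had the opposite pattern (1.37 and -1.92). Of the 66 genes 2-fold lower in Jeko-1/R, 8 were 2-fold higher and 3 were 2-fold lower in Raji/R. Of the 46 genes 2-fold higher, 1 was 2-fold lower there and 4 were 2-fold higher. The share of all genes past 2-fold in the Raji pair is not given here. These counts therefore have no background beside them and do not show whether the pairs differ. The Raji/R array had a higher median log2 signal than the Raji array (6.59 against 6.18), with 55.6% against 48.3% of probe sets at or above the floor. The part of that shift in these counts was not tested.

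Probe sets without a single gene symbol entered no comparison. Of 5414 at or above the floor, 54 were past 2-fold higher in Jeko-1/R (0.997%) and 26 past 2-fold lower (0.48%), beside 0.435% and 0.551% of the named probe sets.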

How the results depend on the processing

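Counts past 2-fold moved with the floor, since most such probe sets are dim. With the floor at the 75th percentile (a signal of 367.3), 11 probe sets and 10 genes were at least 2-fold higher and 25 and 16 lower, and 2 and 14 genes were past 1.5-fold higher and lower by every probe set. With the floor at the 25th percentile (21.2) these counts were 1317, 590, 1441, 753, 84 and 102. The members changed too: 12894 probe sets and 7900 genes at the 75th percentile, and 33894 and 17227 at the 25th. The main setting held 22316 and 11701, quantile normalization 23050 and 12023, and the setting without x_at and s_at probe sets 13799 and 9139. Counts from these settings therefore do not rest on the same features. A pseudocount of 32 gave 197 probe sets and 94 genes higher and 224 and 142 lower. Quantile normalization gave 48 probe sets and 28 genes higher, and 9 genes higher by every probe set. Without x_at and s_at probe sets, 59 probe sets were higher, 69 probe sets and 42 genes lower, and 7 and 13 genes higher and lower by every probe set. The median over probe sets left 30 genes higher. The share of lower genes among those past 2-fold stayed between 54.5% and 65.1% over all settings run.

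The metallothionein median was 0.21 without x_at and s_at probe sets, which leaves MT3, SLC30A1 and MTF1. Medians of the hypoxia list lay between -0.50 and -0.39 over the settings run, glycolysis between -0.41 and -0.20, histones between -0.33 and -0.28, heat shock between -0.23 and -0.08, interferon-stimulated genes between -0.24 and -0.04, and chromosome 15 between 0.109 and 0.135. Of 668 pairs of a named gene and a setting, 5 reversed: E2F2 (0.03) and HK2 (0.19) with the median over probe sets, HSPH1 (0.32) without x_at and s_at probe sets, and LINC00537 (-0.03) with the median over probe sets and with the brightest probe set over 4 arrays. Another 49 pairs moved beyond the spread between probe sets. The number of arrays limits the precision.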

Other observations

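Of the x_at probe sets among the members, which can bind transcripts of several genes, 39 of 1925 passed 2-fold (2.03%), beside 123 of 13304 plain probe sets (0.925%) and 53 of 6592 s_at probe sets (0.804%). The metallothioneins and the pseudogene NACA4P are read by x_at probe sets. A few genes passed 2-fold the same way in both pairs: ZNF76, ZNF521 and HCN3 lower, and NACA4P, REEP2, PTGDS and GTF2IP12 higher. ZNF76 and HCN3 lay below the floor in Jeko-1/R, and REEP2 and PTGDS lay below it in Jeko-1. The other probe set of ZNF521 gave 0.05 in Jeko-1/R. Whether the overlap exceeds that of all genes was not tested. The CHORDC1 gene, a co-chaperone of HSP90, had -0.42 with its brightest probe set (5669 and 4239) and -2.40 with a dimmer one (497 and 94.0).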
